A study of Mus musculus with 13 samples.

Results

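Smooth muscle contractile genes were followed in damaged hepatocytes (dHeps), that is, hepatocytes taken from mouse livers chronically injured with carbon tetrachloride (CCl4). The set was chosen by name and holds 10 genes: Acta2, Actg2, Tagln, Cnn1, Tpm1, Tpm2, Myh11, Myl9, Des and Lmod1. All 10 were found among the 27141 genes of the tables, and all 10 were among the 19884 genes abundant enough to test. The mice were wild-type and the cells were prepared by perfusing the liver with collagenase and pronase. All groups share the CCl4 injury and 16 days of culture in serum-free Hepatocyte Maintenance Medium. The groups were the solvent DMSO, the 5-compound cocktail 5C, and 5C lacking 1 compound. The compound left out was the ROCK inhibitor GSK429286A in 5C-G, the protein kinase D inhibitor CID755673 in 5C-C, the AMPK activator ETC-1002 in 5C-E, the adenylate cyclase activator forskolin in 5C-F, or Salidroside, a glycoside from Rhodiola, in 5C-S. There were 13 libraries in 7 groups, with 2 libraries in each group except 5C-S, which had 1. The comparisons ask what 5C does to these genes against its solvent, and what changes when a compound is withdrawn from it.

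The contractile apparatus of smooth muscle slides actin thin filaments past myosin thick filaments, and myosin is switched on by phosphorylation of its regulatory light chain. In the liver this gene programme belongs to vascular smooth muscle and to the myofibroblasts that hepatic stellate cells and portal fibroblasts become after injury, and alpha-smooth muscle actin is the standard marker of that state. Many of its genes carry CArG boxes, short motifs bound by serum response factor (SRF). The SRF co-activators of the MRTF family are held back by free actin monomer, and the kinase ROCK favours the polymerised form of actin.

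Total counts ran from 30195867 to 45491932 per library. The 10 genes took between 0.0712% and 0.435% of them. Both libraries of a pair differed by more than counting noise in every group, with a chi-square per degree of freedom between 8.01 and 86.6. The study's methods describe replicates as biological, and neither they nor the labels tie a library to an animal or a culture, so p-values measure the spread between these libraries. The letters A and B follow the order of the table columns, and no source says that they pair libraries across groups. In bulk RNA, fewer cells of a type and less RNA per cell cannot be told apart. Of the markers of the labelled cell type, hepatocytes, 10 of 10 were above 0 in every library and Alb lay between 2122 and 18255 FPKM. Being above 0 does not set a cell type apart. All 9 vascular smooth muscle and pericyte markers and all 7 portal fibroblast markers were also above 0 in every library. Mesenchymal RNA was present as well, with Col1a1 between 298 and 870 FPKM.

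FPKM, the read count divided by gene length and library total, allows levels of different genes to be set side by side. By mean FPKM, 9 of the 10 genes were highest in 5C-G, and Myh11 was highest in DMSO. A group of 7 genes (Acta2, Actg2, Tagln, Cnn1, Myh11, Myl9 and Lmod1) lay below 5C in each of 5C-C, 5C-E, 5C-F and 5C-S. Tpm1, Tpm2 and Des were the exceptions, and Des was lowest in 5C itself. The ratio of the highest to the lowest group mean ran from 2.46 for Tpm1 to 75.3 for Myh11.

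**Figure D1:**
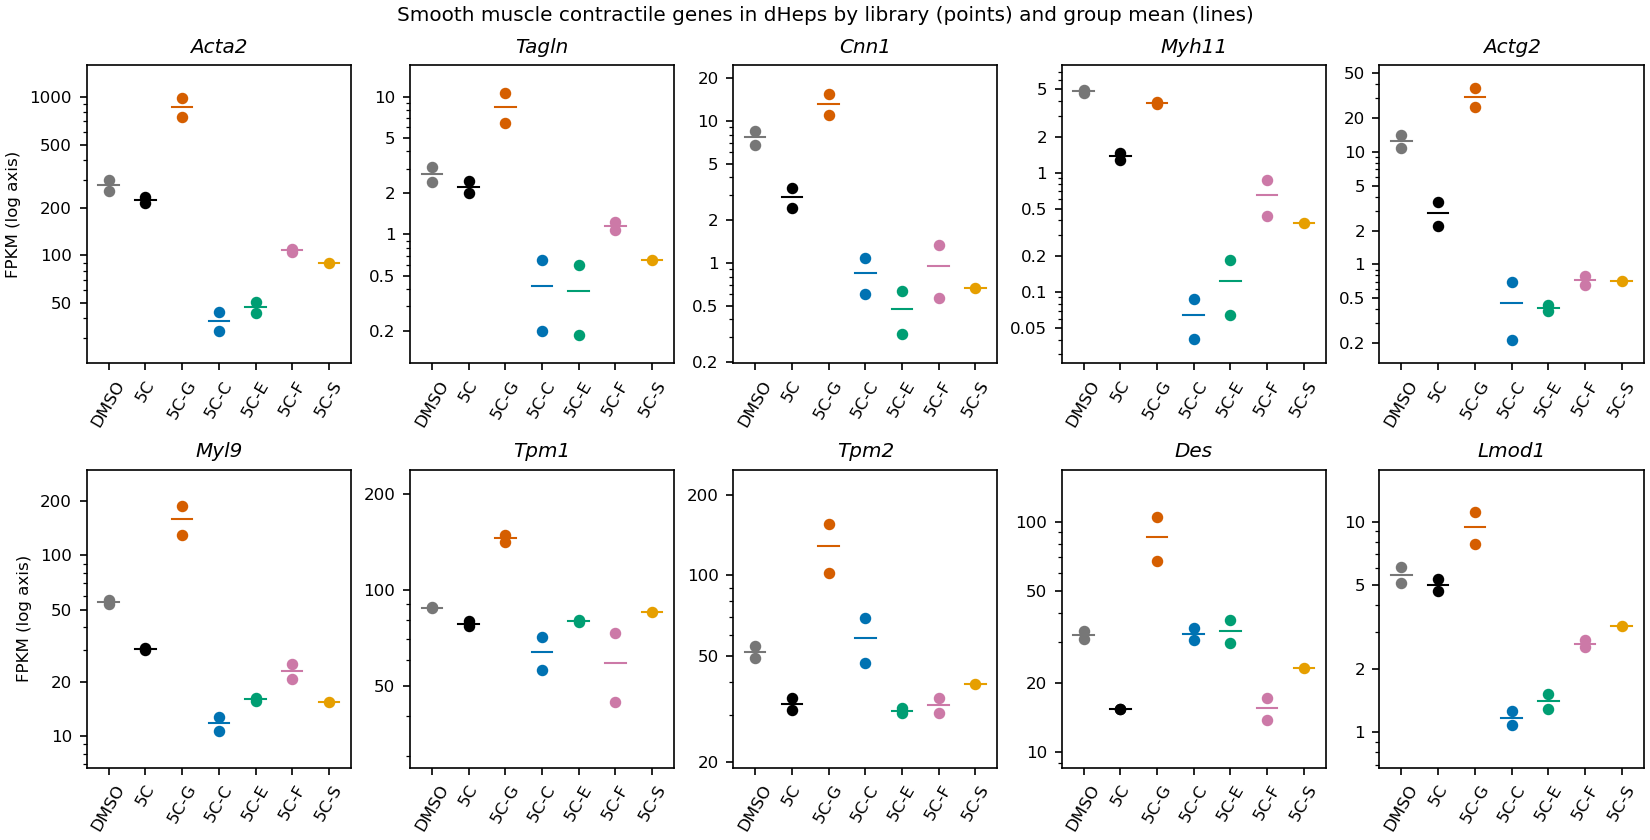
FPKM of each of the 10 genes (vertical log axis, its own range in each panel) in every library of the 7 groups (points), with lines at the group means. The 5C-G libraries stand highest in every panel but that of Myh11, and Des is the panel in which 5C and 5C-F are lowest.

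The smooth muscle actins form the thin filament. Acta2 (ENSMUSG00000035783, GRCm39 chr19:34217737-34232990, minus strand), alpha-smooth muscle actin, had the highest mean FPKM of the 10 in every group except 5C-C and 5C-E, where Tpm1 was higher. It stood at 255 and 299.9 FPKM in DMSO, 233 and 215 in 5C, 746 and 991 in 5C-G, 33.2 and 44.1 in 5C-C, 50.7 and 43.3 in 5C-E, 110.4 and 105 in 5C-F, and 89.0 in 5C-S. Neighbouring groups in this order did not overlap, apart from 5C-E and 5C-C at the bottom. Actg2 (ENSMUSG00000059430, chr6:83489887-83513551, minus strand), the enteric gamma isoform, was far less abundant. Its levels were 10.8 and 14.1 FPKM in DMSO, 2.20 and 3.58 in 5C, 24.7 and 36.6 in 5C-G, 0.212 and 0.704 in 5C-C, 0.388 and 0.433 in 5C-E, 0.663 and 0.795 in 5C-F, and 0.715 in 5C-S. Both 5C libraries lay below both DMSO libraries, and below them again lay every library of 5C-C, 5C-E, 5C-F and 5C-S. At these low levels Actg2 rested on counts of 10 to 52 in the libraries lacking C, E, F or S. The actin genes have closely similar coding sequences, and how reads matching several of them were counted is not given in the sources used here, so their levels carry that uncertainty.

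The stretches upstream of Acta2 and Myl9 are shown because they hold CArG motifs and both genes were called in the same direction when G or C was withdrawn. RefSeq promoter sequences (GRCm38.p6 table, placed on GRCm39 by exact match) were available for 7 of the 10 genes. The 250 bases before each start were searched on both strands. Capitals mark the CArG box, or a CArG-like box in which 1 of its 6 middle bases is not A or T, with 10 bases on either side, read 5′ to 3′ on the strand of the gene.
Acta2, chr19:34232838-34232867, minus strand: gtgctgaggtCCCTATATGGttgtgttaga
Acta2, chr19:34232788-34232817, minus strand: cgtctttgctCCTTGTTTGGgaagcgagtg
Myl9, chr2:156617213-156617242, plus strand: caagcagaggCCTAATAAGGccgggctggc
Myl9, chr2:156617275-156617304, plus strand: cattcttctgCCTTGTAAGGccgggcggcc
The Acta2 motifs are CArG-like boxes 84 to 75 and 34 to 25 bases before the RefSeq start. In Myl9 a full CArG box lies 161 to 152 bases before the start and a CArG-like box 99 to 90 bases before it. All 4 stretches are upstream of the RefSeq start but inside a longer first exon that GENCODE M39 annotates for these genes. A CArG box was present in 1 of the 7 and in 1.47% of all 32851 promoters of the table. A CArG-like box was present in 2 of the 7 and in 7.24% of all. Cnn1 and Lmod1 were among the 7 and had neither box in the bases searched. Both were likewise called higher when G was withdrawn and lower when C was withdrawn. The letters CATTCC, on either strand, were present upstream of Acta2, Tpm1 and Lmod1 and in 12.64% of all promoters, and TATAAA in 0 of the 7 and in 12.37% of all. These matches describe the sequence and do not show binding.

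Tagln and Cnn1 encode actin-binding proteins of the thin filament, transgelin and calponin. Tagln (ENSMUSG00000032085, chr9:45840909-45847404, minus strand) stood at 2.38 and 3.08 FPKM in DMSO, 2.01 and 2.42 in 5C, 6.38 and 10.6 in 5C-G, 0.648 and 0.199 in 5C-C, 0.594 and 0.185 in 5C-E, 1.22 and 1.08 in 5C-F, and 0.648 in 5C-S. DMSO and 5C overlapped, and in the 4 libraries lacking C or E the gene rested on 12 to 43 counts. The level of Tagln is uncertain because 66.73% of its exonic bases are shared with genes on the opposite strand, 60.71% with the long non-coding RNA Gm48529, and the library kit does not mark strand. Gm48529 itself stood at 0.128 to 0.129 FPKM in 5C, 0.701 to 0.833 in 5C-G and 0.0652 to 0.251 in 5C-C, and its part in the values of Tagln was not tested.

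Cnn1 (ENSMUSG00000001349, chr9:22010512-22020926, plus strand) stood at 6.74 and 8.57 FPKM in DMSO, 2.45 and 3.37 in 5C, 10.95 and 15.4 in 5C-G, 0.604 and 1.09 in 5C-C, 0.632 and 0.313 in 5C-E, 0.566 and 1.33 in 5C-F, and 0.664 in 5C-S. The DMSO, 5C and 5C-G libraries were well separated from each other, while the low groups overlapped in part. Elof1, on the opposite strand, covers 35.12% of the exonic bases of Cnn1. Elof1 ranged from 24.8 to 26.5 FPKM in 5C, from 38.3 to 53.9 in 5C-G and from 41.6 to 60.8 in 5C-C, so that it was higher in 5C-C, where Cnn1 was lower. Its part in the values of Cnn1 was not tested.

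The thick filament is represented by Myh11, the smooth muscle myosin heavy chain, and Myl9, a regulatory light chain. Myh11 (ENSMUSG00000018830, chr16:14012399-14109236, minus strand) stood at 4.63 and 4.96 FPKM in DMSO, 1.27 and 1.47 in 5C, 3.88 and 3.74 in 5C-G, 0.0870 and 0.0404 in 5C-C, 0.184 and 0.0645 in 5C-E, 0.432 and 0.867 in 5C-F, and 0.378 in 5C-S. It was the single member whose 5C-G libraries lay below DMSO, and in 5C-C it was down to counts of 20 and 14. Myl9 (ENSMUSG00000067818, chr2:156617084-156623579, plus strand) stood at 54.0 and 56.8 FPKM in DMSO, 30.9 and 30.002 in 5C, 130.4 and 187 in 5C-G, 10.7 and 12.8 in 5C-C, 15.7 and 16.3 in 5C-E, 20.8 and 25.0 in 5C-F, and 15.5 in 5C-S. No 2 groups of Myl9 that were next to each other in the order of means overlapped.

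Tropomyosins lie along the actin filament and gate the access of myosin. Both genes also yield non-muscle isoforms, and counts per gene do not separate these. Tpm1 (ENSMUSG00000032366, chr9:66929870-66956953, minus strand) stood at 88.3 and 87.4 FPKM in DMSO, 79.4 and 76.8 in 5C, 149 and 141 in 5C-G, 56.0 and 71.1 in 5C-C, 80.0 and 79.3 in 5C-E, 44.2 and 73.1 in 5C-F, and 85.3 in 5C-S. Apart from 5C-G its libraries lay between 44.2 and 88.3. Tpm2 (ENSMUSG00000028464, chr4:43514697-43524949, minus strand) stood at 49.1 and 54.5 FPKM in DMSO, 34.7 and 31.5 in 5C, 102 and 156 in 5C-G, 47.2 and 69.5 in 5C-C, 31.8 and 30.6 in 5C-E, 30.7 and 34.8 in 5C-F, and 39.2 in 5C-S. Unlike those of most members, the 5C-C libraries lay above 5C, and they overlapped with DMSO.

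Des encodes desmin, the intermediate filament protein of muscle, which is also a marker of hepatic stellate cells. Des (ENSMUSG00000026208, chr1:75320511-75345223, plus strand) stood at 30.9 and 33.5 FPKM in DMSO, 15.5 and 15.4 in 5C, 67.3 and 105 in 5C-G, 30.8 and 34.6 in 5C-C, 29.8 and 37.5 in 5C-E, 13.8 and 17.3 in 5C-F, and 23.2 in 5C-S. The 5C-C and 5C-E libraries overlapped with DMSO, whereas 8 of the other 9 members were lowest in 5C-C or 5C-E. Lmod1 encodes leiomodin, which nucleates actin filaments in smooth muscle. Lmod1 (ENSMUSG00000048096, chr1:135252509-135295907, plus strand) stood at 5.09 and 6.10 FPKM in DMSO, 4.69 and 5.33 in 5C, 7.82 and 11.1 in 5C-G, 1.26 and 1.08 in 5C-C, 1.52 and 1.28 in 5C-E, 2.54 and 2.72 in 5C-F, and 3.18 in 5C-S. DMSO and 5C overlapped, and the other groups followed without overlap.

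For the tests, a gene was called when its Benjamini-Hochberg adjusted p in edgeR's quasi-likelihood test, adjusted over all genes tested, was under 0.05 and its log2 fold change was beyond 1. The 4 comparisons of a removal with 5C share the 5C libraries, as does that of 5C with DMSO. Folds are edgeR's unless limma is named. Limma was run on log2(FPKM + 1) and log2(FPKM + 0.1), scales that shrink the folds of low genes by construction.

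Against DMSO, 5C lowered 4 of the 10 genes, and the log2 fold changes of all 10 were below 0. Actg2 fell 4.54-fold (log2 fold change -2.18, SE 0.38, adjusted p = 0.00100) and Myh11 3.68-fold (-1.88, SE 0.36, adjusted p = 0.00230). Cnn1 fell 2.77-fold (-1.47, SE 0.39, adjusted p = 0.0287) and Des 2.19-fold (-1.13, SE 0.23, adjusted p = 0.00369). Across all genes 2.89% were called lower and 1.66% higher in this comparison, where 0 members were called higher. The median log2 fold change was -0.83 over the members and 0.01 over all genes. Myl9 missed the size threshold (-0.94, adjusted p = 0.00949). The values of Acta2 (-0.39, adjusted p = 0.359), Tagln (-0.37, 0.770), Tpm1 (-0.24, 0.593), Tpm2 (-0.72, 0.0814) and Lmod1 (-0.23, 0.705) did not pass. Thus the rare isoforms Actg2 and Myh11 were called and the abundant Acta2 was not. The call of Actg2 held without any 1 library. That of Cnn1 was lost without DMSO A, DMSO B, 5C A or 5C B (log2 -1.61, -1.29, -1.24 and -1.73), that of Des without 5C A or 5C B (-1.12 and -1.15), and that of Myh11 without 5C A (-1.76). With all libraries, limma on log2(FPKM + 0.1) called 3 members, without Cnn1 (-1.37, adjusted p = 0.114), and on log2(FPKM + 1) Myh11 fell 2.45-fold. An offset for GC content and length took Des to -0.97, below the size threshold.

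Withdrawal of the ROCK inhibitor (5C-G against 5C) raised all 10 genes, where 7.47% of all genes were called higher. Actg2 rose 11.8-fold (log2 fold change 3.56, SE 0.39, adjusted p = 9.12e-06), Des 6.21-fold (2.64, SE 0.24, adjusted p = 1.03e-06) and Myl9 5.79-fold (2.53, SE 0.22, adjusted p = 7.56e-07). Cnn1 rose 5.03-fold, Tpm2 4.35-fold, Acta2 4.31-fold (2.11, SE 0.21, adjusted p = 3.61e-06), Tagln 4.26-fold and Myh11 3.05-fold. The changes of Lmod1 (2.09-fold, 1.06, SE 0.24) and Tpm1 (2.03-fold, 1.02, SE 0.20) were just past the size threshold. The median was 2.11 over the members and -0.01 over all genes. In all 10 genes both 5C-G libraries lay above both 5C libraries. Library 5C-G B was the higher one of the pair for 8 genes in FPKM, where Myh11 and Tpm1 were the exceptions, and for all 10 in log2 CPM (log2 of counts scaled to library size). Without it 7 of 10 were called, as Tagln (1.57, adjusted p = 0.0945), Tpm1 (0.97) and Lmod1 (0.68) dropped out. Without 5C A 7 were called, losing Tagln (1.95), Myh11 (1.49) and Lmod1 (0.96), and without 5C B 9 were called, losing Tpm1 (0.97). Scaling by total counts alone left 8, without Tpm1 (0.89) and Lmod1 (0.91), and limma also left 8, with Tpm1 at 0.88 and Lmod1 at 0.78 on log2(FPKM + 1) and at 0.89 and 0.88 on log2(FPKM + 0.1). On log2(FPKM + 1) Myh11 rose 2.03-fold. With every gene kept 9 were called, without Tpm1 (0.97). With the offset for GC content and length 9 were called, without Lmod1 (0.74, adjusted p = 0.0217), and Myl9 rose 3.82-fold.

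Relative to DMSO, 6 of the 10 were higher in 5C-G, where 3.11% of all genes were called higher: Acta2 (3.29-fold), Tagln (3.29-fold), Myl9 (3.02-fold), Des (2.83-fold), Tpm2 (2.64-fold) and Actg2 (2.60-fold). Cnn1 (log2 0.86, adjusted p = 0.136), Lmod1 (0.83, 0.0305), Tpm1 (0.78, 0.0169) and Myh11 (-0.27, 0.654) were not called. The count fell to 3 without DMSO A or 5C-G B and to 4 without DMSO B. Without DMSO A the genes lost were Tagln (1.50), Actg2 (1.16) and Tpm2 (1.29), without 5C-G B they were Tagln (1.19), Actg2 (0.95) and Tpm2 (0.95), and without DMSO B they were Tagln (1.92) and Actg2 (1.58). Without 5C-G A, Lmod1 was called (1.13). With all libraries, limma on log2(FPKM + 0.1) left 4, without Tagln (1.57, adjusted p = 0.0839) and Actg2 (1.28, 0.0882), and the offset for GC content and length left 5, without Tagln (1.34, 0.0741).

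**Figure D2:**
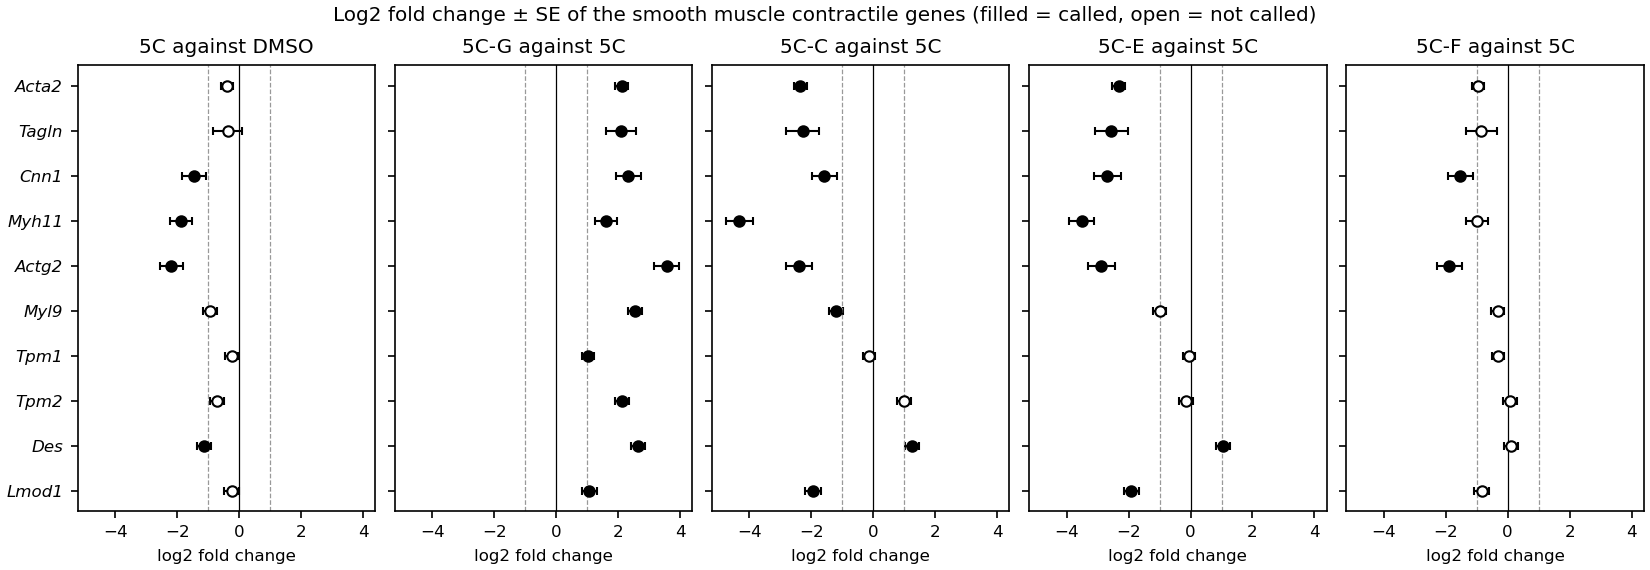
Log2 fold change (horizontal axis) ± SE implied by the test, for each of the 10 genes (rows) in 5 comparisons (panels). Filled points are called, open points are not, and dashed lines mark a log2 fold change of 1 either way. All 10 points are filled to the right for 5C-G, and Des stands alone as a filled point on the right for 5C-C and for 5C-E.

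Withdrawal of the protein kinase D inhibitor (5C-C against 5C) lowered 7 of the 10 genes and raised 1, beside 10.5% of all genes called lower and 9.65% called higher. Myh11 fell 19.99-fold (log2 fold change -4.32, SE 0.45, adjusted p = 7.52e-06), Actg2 5.30-fold (-2.41, SE 0.42), Acta2 5.14-fold (-2.36, SE 0.21, adjusted p = 2.63e-06) and Tagln 4.85-fold (-2.28, SE 0.53). Lmod1 fell 3.83-fold, Cnn1 3.01-fold and Myl9 2.30-fold. Des moved the other way and rose 2.37-fold (1.25, SE 0.23, adjusted p = 0.000498). Tpm2 was just under the size threshold at 0.99 (SE 0.23, adjusted p = 0.00317) and was called with DESeq2 (1.02), with every gene kept, in a fit of these groups alone, and without 5C A (1.04) or 5C-C A (1.28), whereas with the offset for GC content and length it was at 0.36 (adjusted p = 0.184). Tpm1 stood at -0.13 (adjusted p = 0.653). The median was -1.76 over the members and 0.00 over all genes. By limma Myh11 fell 9.06-fold on log2(FPKM + 0.1) and 2.23-fold on log2(FPKM + 1), where Actg2 fell 2.66-fold and Tagln 2.28-fold. Actg2 fell 12.3-fold without 5C-C B, and Tagln 9.59-fold without 5C-C A but 3.11-fold without 5C-C B. Cnn1 was lost without 5C B (-1.30) or 5C-C A (-1.21). With the offset for GC content and length Myl9 fell 3.97-fold, and Des was at 0.91, adjusted p = 0.00147, below the size threshold.

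Set directly against 5C-G, all 10 genes were lower in 5C-C, where 4.14% of all genes were called lower. The fold ran from 62.5 for Actg2 and 60.9 for Myh11 over 22.1 for Acta2 to 2.62 for Des, 2.22 for Tpm1 and 2.19 for Tpm2. That of Actg2 was 40.3 without 5C-C A and 145 without 5C-C B, and that of Tagln, 20.7 with all libraries, was 39.4 and 13.2. By limma the fold of Myh11 was 24.1 on log2(FPKM + 0.1) and 4.52 on log2(FPKM + 1), where that of Actg2 was 21.6, of Cnn1 7.66, of Tagln 6.57 and of Lmod1 4.76. In a fit of these groups alone Tpm2 was not called (-1.09, adjusted p = 0.0858). Without 5C-C A, Tpm1 (log2 -0.90) and Tpm2 (-0.79) were not called, and without 5C-G B, Des (-0.92) and Tpm2 (-0.68) were not. Against DMSO, 7 of the 10 were lower in 5C-C, beside 11.7% of all genes. Myh11 was 73.6-fold and Actg2 24.1-fold lower there, and Acta2 6.72-fold, and the fold of Actg2 was 15.98 without 5C-C A and 55.8 without 5C-C B. Tagln was 12.3-fold lower without 5C-C A and 4.02-fold without 5C-C B. Few counts lay behind the 5C-C levels of Myh11 and Actg2, and the size of their folds depended on the scale. By limma Myh11 was 30.2-fold lower on log2(FPKM + 0.1) and 5.45-fold on log2(FPKM + 1), where Actg2 was 9.31-fold, Cnn1 4.70-fold and Tagln 2.64-fold lower. With the offset for GC content and length Myl9 was 7.08-fold lower, against 4.41-fold without it. The values of Tpm1 (-0.37, adjusted p = 0.149), Tpm2 (0.27, 0.389) and Des (0.11, 0.734) against DMSO did not pass.

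Withdrawal of the AMPK activator (5C-E against 5C) changed 7 of the 10 genes, beside 1.31% of all genes called lower and 0.654% called higher. Of the members, 6 fell. Myh11 fell 11.4-fold (log2 fold change -3.51, SE 0.41, adjusted p = 7.60e-05), Actg2 7.37-fold (-2.88, SE 0.44), Cnn1 6.41-fold (-2.68, SE 0.43), Tagln 5.90-fold (-2.56, SE 0.54), Acta2 4.99-fold (-2.32, SE 0.21, adjusted p = 6.08e-06) and Lmod1 3.75-fold (-1.91, SE 0.25). Des rose 2.07-fold (1.05, SE 0.23, adjusted p = 0.0151). Myl9 lay at the size threshold without passing it (-0.998, adjusted p = 0.0145), and the offset for GC content and length took it past the threshold (-1.17, adjusted p = 0.000246). Tpm1 (-0.04, adjusted p = 0.965) and Tpm2 (-0.16, 0.831) overlapped with 5C. The median was -2.11 over the members and 0.01 over all genes.

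By limma on log2(FPKM + 1) the low genes fell less, Actg2 2.71-fold, Cnn1 2.65-fold, Tagln 2.34-fold and Myh11 2.11-fold (6.79-fold on log2(FPKM + 0.1)), and 7 members were called on both scales. Leaving out 1 library changed several of these values. Without 5C-E A, Myh11 fell 21.7-fold and Tagln 12.2-fold. Without 5C-E B, 4 members were called, and Cnn1 (-2.27), Tagln (-1.97) and Des (0.87) were lost. Without 5C B 5 were called, losing Tagln (-2.37) and Des (1.10), and without 5C A 6 were called, losing Des (1.03). The offset for GC content and length also took Des below the size threshold (0.84, adjusted p = 0.0138). Against DMSO, 7 of the 10 were lower in 5C-E, beside 3.68% of all genes, with Myh11 42.0-fold (79.4-fold without 5C-E A), Actg2 33.5-fold and Cnn1 17.7-fold lower. By limma Myh11 was 22.6-fold lower on log2(FPKM + 0.1) and 5.16-fold on log2(FPKM + 1), where Actg2 was 9.49-fold, Cnn1 5.88-fold, Lmod1 2.74-fold and Tagln 2.70-fold lower. Tagln was 15.7-fold lower without 5C-E A and 5.07-fold without 5C-E B. The 7 called by edgeR were Acta2, Tagln, Cnn1, Myh11, Actg2, Myl9 and Lmod1, and the count was 7 whichever library was left out and 8 with the offset for GC content and length, where Tpm2 was added (-1.01).

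Withdrawal of forskolin (5C-F against 5C) lowered 2 of the 10 genes, beside 2.15% of all genes called lower. These were Actg2 (3.70-fold, log2 fold change -1.89, SE 0.41, adjusted p = 0.00890) and Cnn1 (2.88-fold, -1.53, SE 0.40, adjusted p = 0.0242). Acta2 (-0.95, adjusted p = 0.00891) and Lmod1 (-0.83, 0.0383) missed the size threshold, and Myh11 (-0.99, 0.0837) and Tagln (-0.85, 0.292) missed the adjusted p. The remaining values were -0.31 for Myl9, -0.32 for Tpm1, 0.08 for Tpm2 and 0.10 for Des, with adjusted p from 0.313 to 0.868. Neither call held throughout. Without 5C B 0 were called, with Actg2 at -1.47 and Cnn1 at -1.25. Cnn1 was also lost without 5C A (-1.76) and without 5C-F A (-1.07), and Actg2 without 5C-F A (-1.80) and without 5C-F B (-1.98), where Cnn1 fell 4.65-fold. Acta2 was called without 5C-F A (-1.04), with scaling by total counts (-1.05) and by limma on both scales (-1.05 on each). Limma lost Cnn1 (adjusted p = 0.0527 on log2(FPKM + 1) and 0.0602 on log2(FPKM + 0.1)), and Actg2 fell 2.21-fold on log2(FPKM + 1). With the offset for GC content and length 4 were called, Acta2 (-1.01) and Lmod1 (-1.03) being added. Against DMSO, 7 of the 10 were lower in 5C-F, beside 4.22% of all genes, Actg2 16.8-fold, Cnn1 7.98-fold (12.9-fold without 5C-F B) and Myh11 7.31-fold. Of these, Des and Lmod1 were lost without DMSO B (log2 -0.97 and -0.93) or 5C-F A (-0.91 and -1.06). By limma on log2(FPKM + 1) Actg2 was 7.74-fold, Cnn1 4.51-fold and Myh11 3.54-fold lower, and Lmod1 was not called (-0.86). Tagln, not called by edgeR with all groups and the filter, was called with every gene kept (-1.20), in a fit of these groups alone (-1.20) and with the offset (-1.53).

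Withdrawal of Salidroside was seen in 1 library, so its differences carry no replicate check and no p-value. In 5C-S, 7 genes lay below the range of both 5C libraries and Tpm1, Tpm2 and Des lay above it. Past a log2 difference of 1 were 5 members, all lower, beside 7.35% of all genes: Cnn1 (-2.09), Actg2 (-1.93), Myh11 (-1.85), Tagln (-1.74) and Acta2 (-1.35). Myl9 was at -0.99, Lmod1 at -0.67 and Des at 0.57. The median was -1.17 over the members and 0.00 over all genes.

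Across the 13 libraries, Pearson r of log2 CPM between members ran from 0.22 (Myh11 and Des) to 0.98 (Acta2 and Lmod1). The points share groups and scaling, so r describes the groups more than single libraries. Des had a median r of 0.53 with the other members and Tpm2 of 0.70, against 0.93 for Acta2. The closest partner of Des among the members was Tpm2 (0.88), and the closest of Tpm1 was Myl9 (0.84).

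**Figure D3:**
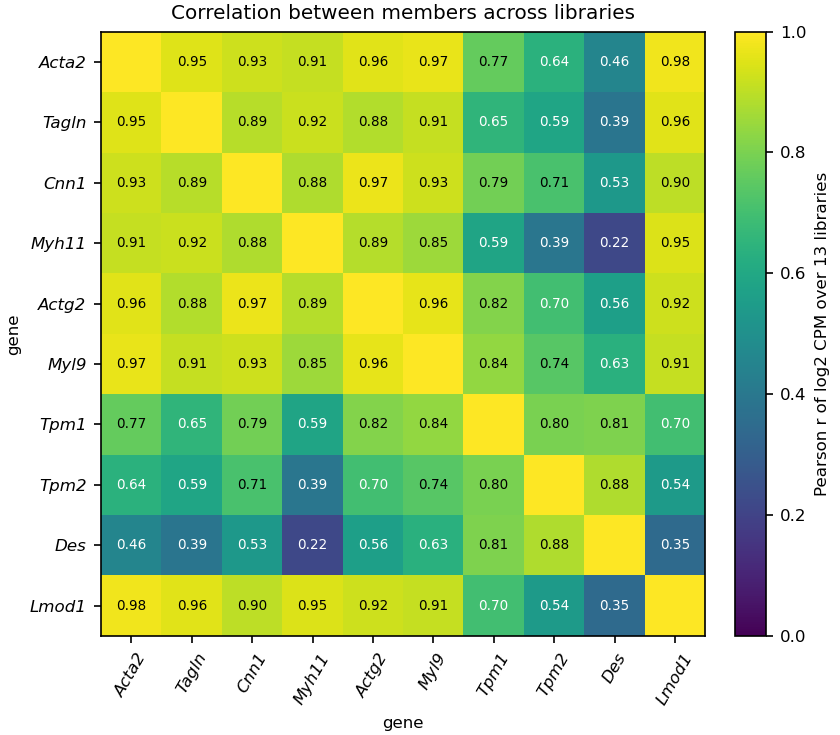
Pearson r of log2 CPM between each pair of the 10 genes over 13 libraries, as colour and number, with both axes listing the genes. The rows of Tpm1, Tpm2 and Des are lower than those of the other 7 genes, and Myh11 with Des is the lowest pair at 0.22.

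Among 13820 other genes with a group mean of at least 1 FPKM, those most like Acta2 were Pea15a (r = 0.96), Popdc2 (0.95) and Ptk2 (0.95). The closest to Myh11 were Ctgf (0.96), Stom (0.94) and Usp2 (0.93). Des was nearest to Plekho2 (0.98), Ehbp1l1 (0.95) and Vgf (0.94), Tpm2 to Smtn (0.97), Cryab (0.96) and Sap18 (0.96), and Tpm1 to Gm17501 (0.95), 5730409E04Rik (0.91) and Slc1a6 (0.91).

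The rest of the contractile machinery was taken from a separate list, and its difference from the members was not tested. It held 21 further smooth muscle contractile genes, such as the myosin light chain kinase gene Mylk and the caldesmon gene Cald1. In 5C against DMSO 0 of the 21 were called, beside 2.89% of all genes called lower and 1.66% called higher. In 5C-G against 5C 3 rose and 2 fell, beside 7.47% of all genes called higher and 5.64% called lower, with a median log2 fold change of -0.22 against -0.01 over all genes. Pdlim7 rose (1.39), while Itga8 (-1.49) and Pdlim3 (-1.37) fell. In 5C-C 2 rose and 8 fell, beside 9.65% and 10.5% of all genes, among them Itga8 (-3.42) and the vinculin gene Vcl (-3.21), and Kcnmb1, which was listed at 0 in both 5C-C libraries, and the median was -0.54. In 5C-E 1 rose (Pdlim3, 1.72) and 1 fell (Itga8, -2.39), beside 0.654% and 1.31% of all genes. In 5C-F 4 fell, Vcl (-1.75) and Pdlim3 (-1.51) among them, beside 2.15% of all genes called lower and 2.69% called higher.

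Among 14 tested non-muscle paralogues of the members, 3 rose in 5C-G against 5C, Myl6 (1.99), Cnn2 (1.55) and Tagln2 (1.20), beside 7.47% of all genes called higher, and the median was 0.66. The ubiquitous beta-actin gene Actb ranged from 1008 to 1219 FPKM in 5C, from 1482 to 1726 in 5C-G, from 718 to 932 in 5C-C and from 838 to 886 in 5C-E. In 5C-C, Myl6 (1.45) and Tagln2 (1.26) rose and 2 paralogues fell, Myh10 (-1.50) being the more changed. Of all genes, 9.65% were called higher and 10.5% lower in 5C-C. In 5C against DMSO, 5C-E and 5C-F, 0 of the 14 were called by edgeR, with medians of -0.15, -0.13 and 0.21. Of all genes, 2.89% were called lower and 1.66% higher in 5C against DMSO. The shares were 1.31% lower and 0.654% higher in 5C-E, and 2.15% lower and 2.69% higher in 5C-F. Of 6 tested striated muscle genes, Myl7 rose in 5C-G (3.55) and in 5C-C (2.99), and Tnni3 in 5C-C (2.32), beside the shares given above for 5C-G and 5C-C. Summed over 9 genes, striated muscle transcripts reached 7.23 FPKM at most.

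Of 8 measured genes on a list of SRF, its co-activators and partner factors, Fhl2 rose in 5C-G (1.19), Mkl2 (-1.47) and the TEAD factor gene Tead1 (-1.40) fell in 5C-C, and 0 were called in 5C against DMSO, 5C-E and 5C-F. Mkl1 and Mkl2 are older symbols of the MRTF genes Mrtfa and Mrtfb. Mkl2 ranged from 3.50 to 4.27 FPKM in DMSO, 4.21 to 4.31 in 5C, 1.83 to 2.44 in 5C-G, 1.22 to 1.54 in 5C-C, 4.39 to 4.45 in 5C-E and 2.45 to 2.86 in 5C-F. Mkl1 ranged from 13.4 to 14.9 FPKM in DMSO, 8.97 to 9.65 in 5C, 12.3 to 12.5 in 5C-G, 9.20 to 9.24 in 5C-C, 10.6 to 14.3 in 5C-E and 7.73 to 10.3 in 5C-F. By mean it was highest in DMSO, and in 5C-E it lay above 5C without being called. Srf itself ranged from 13.2 to 13.3 FPKM in DMSO, 11.7 to 11.9 in 5C, 19.0 to 20.7 in 5C-G, 10.9 to 11.2 in 5C-C, 11.9 to 13.02 in 5C-E and 10.68 to 10.69 in 5C-F. Myocd, the muscle co-activator of SRF, was at most at 0.240 FPKM. The part of these factors in the values of the contractile genes was not tested. Of 14 genes of the ROCK pathway, the small GTPase gene Rhoc fell in 5C against DMSO (-1.01) and rose in 5C-G (1.70), 5C-C (1.75) and 5C-F (1.09). In 5C-G 4 of the 14 rose, with Cfl1 (1.46) and Dapk3 (1.35) beside Rhoc, and in 5C-C 3 rose and 3 fell, among them Rnd3 (-1.72) and Rock1 (-1.67). Of all genes, 7.47% were called higher in 5C-G, and 9.65% higher and 10.5% lower in 5C-C. In 5C against DMSO 2.89% were called lower and 1.66% higher. The shares were 1.31% lower and 0.654% higher in 5C-E, and 2.15% lower and 2.69% higher in 5C-F. The part of the ROCK pathway genes in the values of the contractile genes was not tested.

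Markers of other cell types moved in the same comparisons. Of all genes, 2.89% were called lower and 1.66% higher in 5C against DMSO, 5.64% lower and 7.47% higher in 5C-G, 10.5% lower and 9.65% higher in 5C-C, 1.31% lower and 0.654% higher in 5C-E, and 2.15% lower and 2.69% higher in 5C-F. The 10 macrophage markers summed to between 2329 and 2354 FPKM in DMSO, 273 and 291 in 5C, 2790 and 4362 in 5C-G, 648 and 1108 in 5C-C, 395 and 501 in 5C-E, and 865 and 1127 in 5C-F. Of these 10, 9 fell in 5C against DMSO and 9 rose in 5C-G against 5C, the direction of the contractile genes there. In 5C-C 5 rose and 1 fell and in 5C-F 8 rose, where the called contractile genes other than Des fell, and in 5C-E 0 were called. The part of macrophage RNA in the values of the contractile genes was not tested.

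Genes of stellate cells and fibroblasts are the markers nearest to the contractile programme. The 14 stellate cell and fibroblast markers summed to between 1449 and 1476 FPKM in DMSO, 1460 and 1473 in 5C, 1525 and 1809 in 5C-G, 1818 and 1915 in 5C-C, 1856 and 2016 in 5C-E, and 1057 and 1086 in 5C-F. In 5C against DMSO 2 of the 14 rose and 1 fell, in 5C-G 2 rose and 3 fell, in 5C-C 2 rose and 5 fell, and in 5C-E and 5C-F 1 fell each. The called genes did not move in 1 direction. In 5C against DMSO the retinol-esterifying enzyme gene Lrat (3.19) and the receptor gene Pdgfra (1.36) rose and Ecm1 fell (-1.37). Lrat fell in 5C-G (-1.89) and in 5C-C (-1.85), Pdgfra fell in 5C-G (-2.02), and the stellate cell gene Reln fell in 5C-C (-4.60), 5C-E (-2.46) and 5C-G (-1.69). The transcription factor gene Hand2 rose in 5C-C (1.81), from a mean of 12.3 to 38.3 FPKM. Over 9 vascular smooth muscle and pericyte markers the sum lay between 11.2 and 23.1 FPKM in all 13 libraries, and all 9 were above 0 in each. It was 16.2 to 17.96 FPKM in 5C, 11.5 to 13.7 in 5C-G, 22.28 to 22.31 in 5C-C and 21.6 to 23.1 in 5C-E. In 5C against DMSO 2 of them rose, in 5C-G 2 fell, in 5C-C 1 rose and 2 fell, in 5C-E 0 were called and in 5C-F 1 fell. Rgs5, a pericyte marker, rose in 5C against DMSO (3.04) and fell in 5C-G (-3.94) and 5C-C (-1.86), in the first 2 of these against the direction of the contractile genes called there. The potassium channel gene Kcnj8, another pericyte marker, rose in 5C-C (2.11), from a mean of 3.34 to 12.8 FPKM. Their part in the contractile genes' values was not tested.

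**Figure D4:**
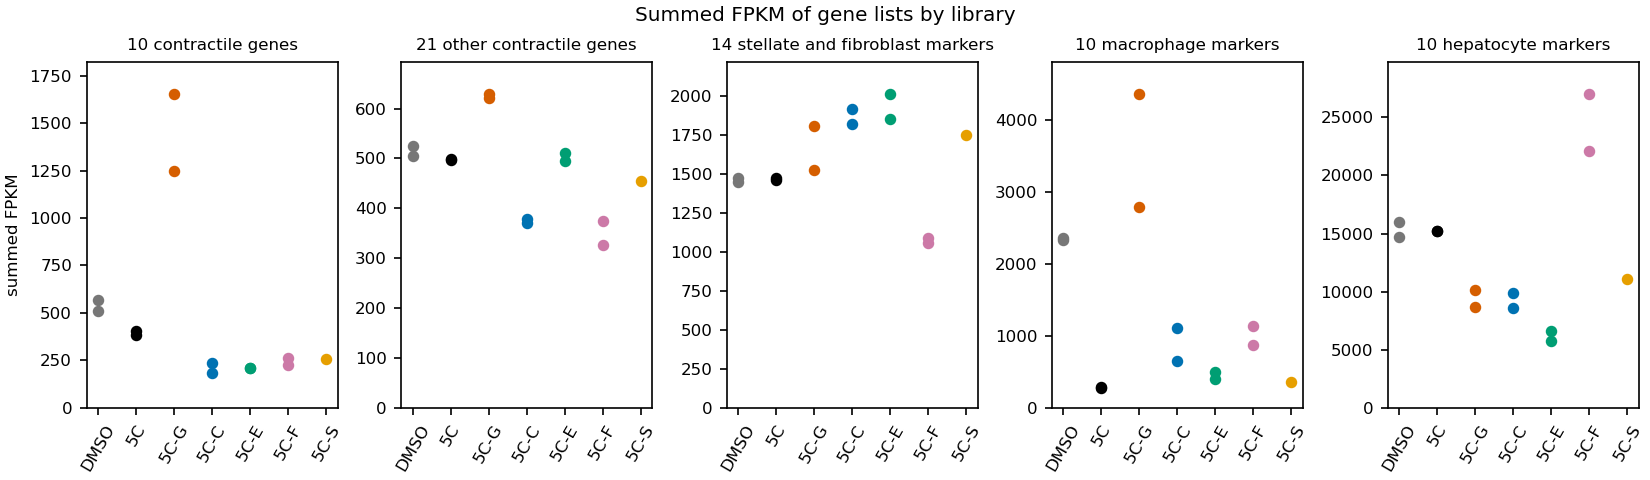
Summed FPKM (vertical axes from 0, each panel its own range) of 5 gene lists in every library (points) of the 7 groups. The contractile genes and the macrophage markers are both highest in 5C-G, the hepatocyte markers are highest in 5C-F, and the stellate cell and fibroblast markers are lowest in 5C-F.

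The 10 hepatocyte markers summed to between 14700 and 16030 FPKM in DMSO, 15175 and 15254 in 5C, 8688 and 10110 in 5C-G, 8621 and 9849 in 5C-C, 5749 and 6586 in 5C-E, and 22081 and 27050 in 5C-F. In each of 5C-G, 5C-C and 5C-E 4 of them fell, 1 rose in 5C-G and 2 rose in 5C-F, and 0 were called by edgeR in 5C against DMSO. Alb and the transferrin gene Trf had the highest levels among them, at means of 9431 and 4236 FPKM in 5C. Of 7 portal fibroblast markers, 2 rose and 1 fell in 5C against DMSO, 2 rose and 2 fell in 5C-G and 0 were called by edgeR in 5C-C, 5C-E and 5C-F. Of 7 tested endothelial markers, 1 fell in 5C against DMSO, 2 rose and 2 fell in 5C-G, 0 were called in 5C-C, and 1 rose in each of 5C-E and 5C-F. Of 6 cholangiocyte markers, 1 rose in 5C against DMSO, 2 fell in 5C-G, 1 rose in each of 5C-C and 5C-F, and 0 were called in 5C-E. The part of these cell types in the values of the contractile genes was not tested.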

How the data were processed

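The 13 libraries were made from total RNA with the NEBNext Ultra kit, which does not mark strand. The authors deposited whole-number counts per gene on GRCm39 and a table of FPKM, which they scaled by gene length and library total. The submitters' processing notes name featureCounts, Subread and DESeq2, and the settings for strand and for reads matching several genes are not given in the sources used here. Replicate labels were not matched to single columns. Every column of sample values was used.

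Counts were tested with edgeR 4.0.16 in R 4.3.3 (TMM, filterByExpr with a minimum count of 10, glmQLFit and glmQLFTest), all 13 libraries in 1 fit with 6 residual degrees of freedom and a common BCV (biological coefficient of variation) of 0.261. Differential expression was tested with DESeq in the study, and edgeR took its place here. The SE of a log2 fold change is its size divided by the square root of the F statistic. Log2 CPM used a prior count of 2. The steps were tested on simulated data.

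The members and lists were chosen with earlier results of these data known. All members were named whatever their values. Of other lists at most 3 called genes per comparison were named, by size of change, and 1 such gene is not reported here. The gene likeness rule took the 3 highest correlations. List genes missing by symbol were matched through RefSeq synonyms (Mrtfa as Mkl1, Mrtfb as Mkl2 and Tf as Trf), and those still unmatched (among them Myl2 and Olfr78) were not analysed here. Positions, exons and overlaps come from GENCODE M39, promoters from RefSeq. Alternatives were scaling by total counts, DESeq2 1.42.0, no filter, limma 3.58.1 on log2(FPKM + 1) and log2(FPKM + 0.1), only the groups compared, an offset for GC content and length, each library left out in turn, and a block on the column number. Intervals of counting error were not used, and precision comes from the spread between 2 libraries.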

Additional observations from a re-analysis of the deposited data

How the results depend on the processing

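Over 1200 repeats of the members' fold changes under the alternatives, 1098 kept their direction and their side of the threshold, 63 lost the call, 18 gained it and 21 changed sign in values that were not called. With the offset for GC content and length, the count for 5C-F against 5C was 4. Leaving out 1 library each gave 1 to 3 members called for 5C against DMSO, and, against 5C, 7 to 10 when G was lacking, 7 to 9 without C, 4 to 7 without E and 0 to 1 without F. Against DMSO, 3 to 7 were called in 5C-G, 7 in both 5C-C and 5C-E, and 5 to 7 in 5C-F, and 8 to 10 were called in 5C-C against 5C-G. Where a group was left with 1 library, it was assumed to vary like the others.

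The values that changed sign lay near 0. With total counts alone, Tpm1 was at 0.029 in 5C-E against 5C, Tpm2 at -0.015 in 5C-F against 5C and Des at 0.063 in 5C-E against DMSO. With limma on log2(FPKM + 1) and log2(FPKM + 0.1), Tpm1 was at 0.028 and 0.029, Tpm2 at -0.016 in both, Des at -0.00187 and -0.00249 in 5C-F against 5C, and Des at 0.053 and 0.054 in 5C-E against DMSO. With the offset, Tpm1 was at 0.016 in 5C-C and Tpm2 at -0.15 and Des at -0.039 in 5C-F against 5C, and Tpm2 at -0.18 and Des at -0.063 in 5C-C against DMSO. Leaving out 1 library put Tpm1 in 5C-C against 5C between -0.34 and 0.074, Tpm2 in 5C-C against DMSO between -0.071 and 0.57, Des in 5C-C against DMSO between -0.0011 and 0.25, Des in 5C-F against 5C between -0.026 and 0.22, and Des in 5C-E against DMSO between -0.26 and 0.11. The cause was not tested. The pseudocount of 1 shrinks low genes by construction, and Myh11 in 5C-C against 5C was at -1.16 with it and at -3.18 with 0.1.

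Scaling by total counts moved the median of all genes by -0.13 in 5C-G and -0.16 in 5C-C against 5C and by 0.15 in 5C-E against DMSO. Log2 fold changes followed GC content across genes, with a Spearman rho of 0.34 in 5C-G and 0.41 in 5C-C against 5C, and genes are not independent replicates. The columns carry running numbers that no source ties to an animal or a day. Differences between equal numbers correlated weakly at most across groups (r from -0.034 to 0.10 over 15 pairs of groups, 1 of them over 0.1). Such values cannot exclude a batch shared by libraries of the same number. A replicate block on that number, chosen after seeing the data, called 8 members in place of 7 in 5C-E against 5C, where Myl9 passed the size threshold (-1.001), and left the other counts of members as they were. Over all genes, more were called with the block in every comparison. The ratio ran from 1.005 in 5C-C against DMSO to 1.19 in 5C-E against 5C (466 genes in place of 390). With 2 libraries a group, the differences not called cannot be read as absent.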
